A study of Rattus norvegicus with 19 samples.

Results

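Control hearts at week 9 of the study were compared with control hearts at week 5 by RNA-seq of the left ventricle. The comparison and the gene lists were chosen with earlier results of these data known. The comparison rests on 6 of the 19 libraries of the series, taken by their labels. These were 3 labelled as control at 5 weeks (control 5w) and 3 labelled as control at 9 weeks (control 9w). All came from male wild-type Sprague-Dawley rats that were 24 weeks old when the experiments began, had no disease and received neither L-NAME, the nitric oxide synthase inhibitor of the study, nor a drug, and the libraries of a group were labelled as separate biological replicates. The paper's results section describes the control rats as fed normal chow. For comparison, HFpEF hearts (3 libraries, week 5) came from rats given L-NAME at 0.5 g/L with a high-fat diet of 60% kilocalories from fat, and untreated hearts (3 libraries, week 9) from such rats that then received only phosphate-buffered saline. The EMPA, PFD and EMPA + PFD libraries, also of week 9, came from such rats that instead received daily oral empagliflozin (EMPA), pirfenidone (PFD) or both. The question addressed was how the transcriptome of the control left ventricle differed between these time points, which also serve as the references for the HFpEF groups.

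The ventricle is built of cardiomyocytes, which hold most of its mass and RNA, among endothelial cells, fibroblasts, smooth muscle cells and resident macrophages. Cardiomyocytes burn mainly fatty acids and, to a lesser part, glucose, lactate and ketone bodies. Many cardiac transcripts also follow signals from outside the heart: glucocorticoids act through a nuclear receptor, interferons through JAK-STAT signaling, and the circadian clock sets a daily rhythm in PAR bZIP and period genes. The hour at which the hearts were taken is not given in the sources used here.

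The 6 control libraries held 7803050 to 13017754 counts. Those of control 5w (11628931 to 13017754) all lay above those of control 9w (7803050 to 9409670), so depth moved with time. Thinned to 7430539 counts each, the smallest total of the 19 libraries, the libraries gave 1748 genes called in place of 1817. The 3 libraries of control 5w were not alike. Replicates 2 and 3 lay 30.2 apart in Euclidean distance of log2 CPM over all tested genes and replicate 1 lay 85.1 and 93.2 from them, against 49.8 to 82.0 within control 9w and 102 to 128 between the groups. The counts of replicates 2 and 3 still differed beyond sampling noise, with a chi-square of 7.05 per gene. It was 187 and 144 from replicate 1 to replicates 2 and 3, and 15.2 to 53.5 within control 9w. A value above sampling noise does not show that libraries came from separate hearts, which was not tested. Cardiomyocyte markers were abundant in every library, with a summed CPM of 42500 to 92300 in control 5w and 42200 to 58600 in control 9w over 11 genes. The cardiac troponin T gene Tnnt2 had 10520, 5885 and 6213 CPM in control 5w and 6650, 8169 and 6924 CPM in control 9w. Eif2s3y, a Y-linked gene, had 113, 103 and 96.4 CPM in control 5w and 73.8, 75.4 and 73.9 CPM in control 9w, a check of the label male in these 6 libraries.

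Of 17455 genes, 12388 passed the expression filter and were tested. DEGs were genes with an adjusted p-value under 0.05 in edgeR's quasi-likelihood F test with Benjamini-Hochberg adjustment and a log2 fold change of 1 or more in either direction. Between control 9w and control 5w there were 1817 DEGs, of which 924 (7.46% of the genes tested) were higher and 893 (7.21%) were lower at week 9. A log2 change of 2 or more was reached by 519 of them and of at least 3 by 175. In 1645 of the 1817 DEGs (90.5%) the 3 libraries of each time point did not overlap. Over all tested genes, the 3 libraries of control 9w lay wholly above those of control 5w in 3050 (24.6%) and wholly below in 3065 (24.7%). Leaving out control 9w replicate 2 gave 1206 DEGs, of which 1163 were among the 1817. The median log2 fold change of all tested genes was -0.04, the reference for the medians of gene lists given here.

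**Figure D1:**
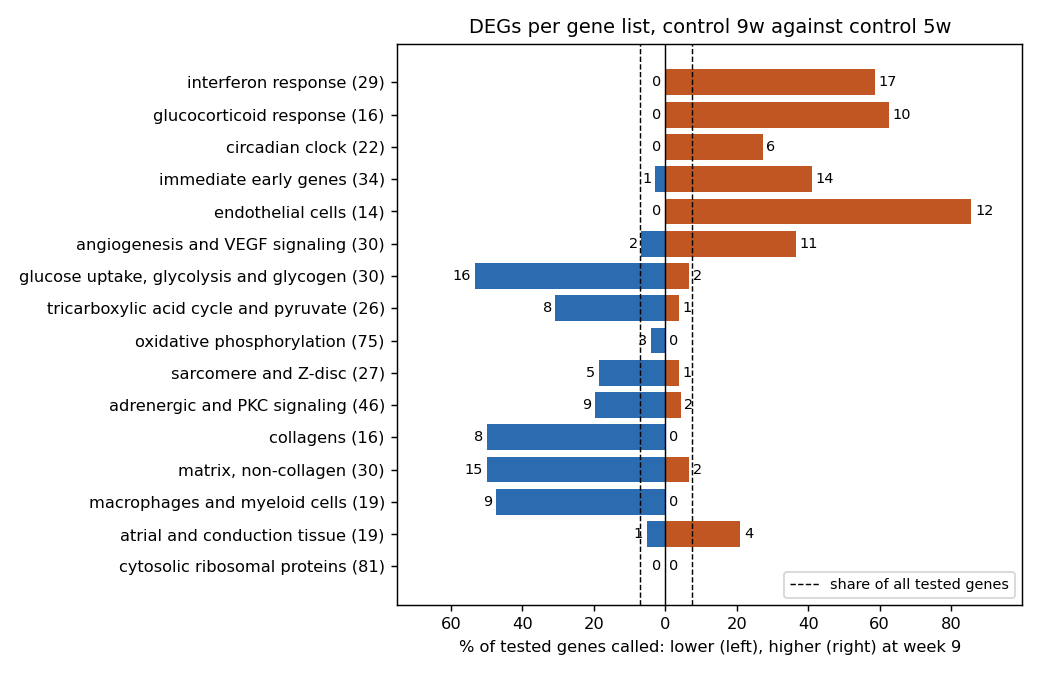
Share of each gene list that was called, with the number of tested genes in parentheses. Bars to the right give the percent of DEGs higher at week 9 and bars to the left the percent lower, digits the number of DEGs, and dashed lines the shares among all tested genes, 7.46% and 7.21%. The endothelial list reached 12 of 14 on the right and the glycolysis list 16 of 30 on the left, whereas no cytosolic ribosomal protein gene was called.

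Genes of the interferon response were higher at week 9. Of 29 tested genes, 17 rose and none fell, with a median log2 fold change of 1.06, and in 20 genes all libraries of control 9w lay above those of control 5w. The mean log2 CPM of the list was 4.57, 4.87 and 4.84 in control 5w and 5.81, 6.14 and 5.41 in control 9w, without overlap. Without control 9w replicate 2, which had the highest level, 11 genes rose.

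Ifit3, an interferon-induced protein that restrains viral RNA, had 8.2, 13 and 11.9 CPM in control 5w and 64.2, 91.6 and 49.2 CPM in control 9w. Its log2 fold change was 2.62 (SE 0.33, adjusted p = 1.53e-04), the smallest p of the list. Irf7, a transcription factor that amplifies type I interferon production, had 43.8, 87 and 68.4 CPM in control 5w and 220, 245 and 129 CPM in control 9w (log2 fold change 1.57, SE 0.32, adjusted p = 0.00223). In both genes control 9w replicate 3 was the lowest of its group and still lay above every library of control 5w.

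Irf9, the DNA-binding subunit of the complex that type I interferons activate, had 31.5, 36.5 and 35.5 CPM in control 5w and 74.7, 88.7 and 60.7 CPM in control 9w, and its log2 fold change of 1.11 lost the call when control 9w replicate 2 was left out. The antiviral genes Ifit2, Mx2 and Oas1a rose by 1.73, 1.96 and 1.21 on the log2 scale. Of the 29 genes, 12 were not DEGs.

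Promoters of these genes are shown because the members moved together. RefSeq windows of 250 bases before the transcription start on GRCr8 were found for 19 of the 29 genes. The interferon-stimulated response element was searched as GAAANNGAAA on both strands, so that a site on the other strand reads TTTCNNTTTC. It occurred in 13 of the 19 genes (68.4%), among them 7 of the 10 DEGs with a window, and in 3.41% of all 33469 windows. Of the members with a window that were not DEGs, Oasl2, Rsad2, Gbp2, Gbp5, Ifih1 and Bst2 held it and Stat2, Irf1 and Cmpk2 did not. The list was drawn up from interferon response genes, so these shares do not bear on the change with time. A match describes the letters and is no evidence of binding. The 3 DEGs with a match and the smallest p follow, 5′ to 3′ on the strand of the gene with each match in capitals. They lie at chr1:241527076-241527325 on the plus strand (Ifit3), chr12:41395853-41396102 on the minus strand (Oas1b) and chr2:233978236-233978485 on the plus strand (Gbp4).
Ifit3: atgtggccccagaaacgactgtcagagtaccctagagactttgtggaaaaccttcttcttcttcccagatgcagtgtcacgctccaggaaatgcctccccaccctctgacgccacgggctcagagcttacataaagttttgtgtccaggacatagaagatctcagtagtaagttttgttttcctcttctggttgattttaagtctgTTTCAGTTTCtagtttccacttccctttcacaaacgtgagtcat
Oas1b: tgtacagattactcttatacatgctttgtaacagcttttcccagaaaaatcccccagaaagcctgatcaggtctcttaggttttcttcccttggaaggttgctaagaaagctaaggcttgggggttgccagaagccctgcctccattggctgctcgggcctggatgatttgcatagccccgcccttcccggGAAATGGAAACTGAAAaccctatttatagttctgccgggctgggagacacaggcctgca
Gbp4: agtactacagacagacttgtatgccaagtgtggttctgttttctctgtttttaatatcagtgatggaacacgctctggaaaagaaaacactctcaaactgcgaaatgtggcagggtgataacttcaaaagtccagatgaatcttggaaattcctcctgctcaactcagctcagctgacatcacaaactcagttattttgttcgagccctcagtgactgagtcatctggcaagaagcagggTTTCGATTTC
The match ends 34 bases before the start in Ifit3 and directly at it in Gbp4, and in Oas1b 2 overlapping matches end 43 bases before it. Oas1b had 6.22, 9.85 and 9.23 CPM in control 5w and 26.9, 37.3 and 20.9 CPM in control 9w, and Gbp4, a guanylate-binding protein, had 4.52, 4.19 and 4.14 CPM in control 5w and 12.6, 17.7 and 8.57 CPM in control 9w, so that both rose without overlap.

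Genes of the rat MHC, the RT1 complex, split in both directions. Of 38 tested genes of the MHC and antigen processing, 12 rose and 11 fell. RT1-S3, a class I gene, had 73.7, 95.2 and 95.5 CPM in control 5w and 308, 326 and 269 CPM in control 9w (log2 fold change 1.77, SE 0.15, adjusted p = 9.83e-06), and Tap2, which carries peptides to class I molecules, rose by 2.08 on the log2 scale. RT1-A2, also a class I gene, had 89.2, 115 and 108 CPM in control 5w and 24.9, 25.5 and 22.2 CPM in control 9w (log2 fold change -2.10, adjusted p = 5.16e-04), so that class I genes were found in both directions. Among genes of class II presentation, Cd74, the class II invariant chain, had 871, 1430 and 1347 CPM in control 5w and 328, 338 and 287 CPM in control 9w (log2 fold change -1.94), RT1-Db1 fell by 2.77 and Ciita, the master regulator of class II, fell by 2.16 on the log2 scale.

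A few RT1 genes were all but absent at week 5. RT1-CE16 had 1, 0 and 0 counts in control 5w and 922, 825 and 913 in control 9w, at least 393-fold higher against a floor of 3 counts per library. RT1-Bb, a class II gene, had 0 counts in all 3 libraries of control 5w and 195, 147 and 183 in control 9w (at least 77.3-fold higher), and RT1-A3 had 1, 0 and 0 against 57, 72 and 65 (at least 28.9-fold higher). RT1 genes have near-identical copies that differ between haplotypes, and how reads shared by copies were counted is not given, so single RT1 values are uncertain. In the HFpEF libraries of week 5 the same 3 genes had at most 3 counts and in the untreated libraries of week 9 at least 41. The 2 EMPA libraries of week 9 had 0 counts of all 3 genes, and the PFD and EMPA + PFD libraries at least 20. No other gene had at most 3 counts in all 8 libraries of control 5w, HFpEF and EMPA and at least 10 in all 11 others, a count made after these values were seen. In the controls this split coincides with time, but across the series it does not, since the EMPA libraries of week 9 stood with those of week 5. Whether the labels of the libraries or the origin of the rats bear on it was not tested, and in the controls neither can be told apart from time. That limit holds for every difference between control 9w and control 5w given here, not only for RT1 genes.

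Target genes of the glucocorticoid receptor were higher at week 9. Of 16 tested genes, 10 rose and none fell, the median log2 fold change was 1.775, and in 15 genes the libraries of control 9w lay wholly above those of control 5w. The level of the list was 4.43, 4.66 and 4.6 log2 CPM in control 5w and 6.44, 6.31 and 6.27 in control 9w. Without control 5w replicate 3, 6 genes rose, and without its replicates 2 and 3, which lay apart from replicate 1, 4 rose. Counts without both rest on 1 library of week 5, assumed to vary like the other groups, and so on a test with fewer libraries, here and wherever both were left out.

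Sgk1, a kinase that regulates ion transport, had 50.1, 61.5 and 61.3 CPM in control 5w and 479, 536 and 330 CPM in control 9w (log2 fold change 2.96, SE 0.23, adjusted p = 5.84e-06). Per1, a period gene that glucocorticoids also induce, had 54.9, 71.9 and 72.2 CPM in control 5w and 476, 554 and 424 CPM in control 9w (log2 fold change 2.87, SE 0.33, adjusted p = 9.85e-05). Angptl4, an inhibitor of lipoprotein lipase, had 1.23, 1.32 and 0.955 CPM in control 5w and 9.93, 11.8 and 7.98 CPM in control 9w (log2 fold change 3.07). Angptl4 also belongs to the list of ketone body genes and targets of the receptor PPAR-alpha. Of 19 tested genes of that list 4 rose and 3 fell, with a median of -0.153. In Sgk1, Per1 and Angptl4 all libraries of control 9w lay above those of control 5w by more than the spread within either group.

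Other classical targets rose less firmly. Fkbp5, a co-chaperone of the receptor, had 38.1, 45.5 and 44 CPM in control 5w and 114, 96.3 and 106 CPM in control 9w (log2 fold change 1.31, SE 0.45, adjusted p = 0.0375), and its call was lost when any 1 of the 6 libraries was left out. Tsc22d3, which encodes the glucocorticoid-induced leucine zipper, had 93.1, 146 and 142 CPM in control 5w and 289, 213 and 278 CPM in control 9w (log2 fold change 1.03), and its call was kept only without control 9w replicate 2 among the 6 omissions and was lost with limma voom. Klf9, another target, had 69.7, 63.9 and 65.5 CPM in control 5w and 137, 111 and 121 CPM in control 9w and stayed under the fold change minimum (log2 fold change 0.89, adjusted p = 0.0115).

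Of 22 tested genes of the circadian clock, 6 rose and none fell, with a median log2 fold change of 0.35. All libraries of control 9w lay above control 5w in 11 genes and below it in 6. The genes that rose were Per1, Per2, Per3, Dbp, Tef and Ciart, which the CLOCK and BMAL1 complex activates through E-boxes, whereas Nr1d2 (log2 fold change 0.96), Bhlhe40 (0.14) and Usp2 (0.31), which it also activates, were not DEGs. Ciart, a repressor of that complex, had 5.56, 2.95 and 2.23 CPM in control 5w and 40.4, 39.7 and 39.2 CPM in control 9w (log2 fold change 3.48, SE 0.67, adjusted p = 0.00186). Dbp, a PAR bZIP factor, had 103, 45.2 and 45.8 CPM in control 5w and 207, 203 and 183 CPM in control 9w (log2 fold change 1.62). Arntl, which encodes BMAL1, had 32.6, 59.2 and 62.4 CPM in control 5w and 14.1, 17.5 and 16.4 CPM in control 9w, lower in every library of control 9w, without passing the test (log2 fold change -1.68, adjusted p = 0.0528).

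Without both control 5w replicates 2 and 3, 1 of the 22 clock genes rose. The calls of Per2 and Dbp were lost when control 5w replicate 2 or replicate 3 was left out, and that of Per2 also without control 9w replicate 2. Npas2, the partner of BMAL1 beside CLOCK, was lower in every library of control 9w and did not pass either (log2 fold change -1.05, adjusted p = 0.0848). Nr1d1, the repressor REV-ERB alpha, had 83.4, 78.8 and 74.7 CPM in control 5w and 154, 151 and 142 CPM in control 9w (log2 fold change 0.92, adjusted p = 0.0547). All 3 libraries of control 9w lay above control 5w in Nr1d1.

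The promoter windows of 16 clock genes were found. The E-box CACGTG, which reads alike on both strands, occurred in 4 of them, among them Ciart with 3 copies and Tef, and in 5.59% of all windows. The D-box TTATGTAA, searched on both strands, occurred in Per2 alone and in 0.828% of all windows. Both promoters are shown because these genes rose, with the motifs in capitals, at chr2:186112247-186112496 (Ciart) and chr9:99496994-99497243 (Per2) of GRCr8, each on the minus strand.
Ciart: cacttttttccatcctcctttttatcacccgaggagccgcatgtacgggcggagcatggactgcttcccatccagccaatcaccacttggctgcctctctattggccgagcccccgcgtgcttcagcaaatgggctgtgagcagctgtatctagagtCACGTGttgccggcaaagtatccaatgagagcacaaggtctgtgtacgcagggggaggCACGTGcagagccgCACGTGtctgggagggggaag
Per2: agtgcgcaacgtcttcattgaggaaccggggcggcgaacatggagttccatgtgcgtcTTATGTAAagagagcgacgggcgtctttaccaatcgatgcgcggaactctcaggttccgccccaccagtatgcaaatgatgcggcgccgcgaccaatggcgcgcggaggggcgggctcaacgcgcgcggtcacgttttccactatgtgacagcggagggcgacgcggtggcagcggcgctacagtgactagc
In 3 of the 6 genes that rose neither motif was met in this window, which says only that these letters are not in it.

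**Figure D2:**
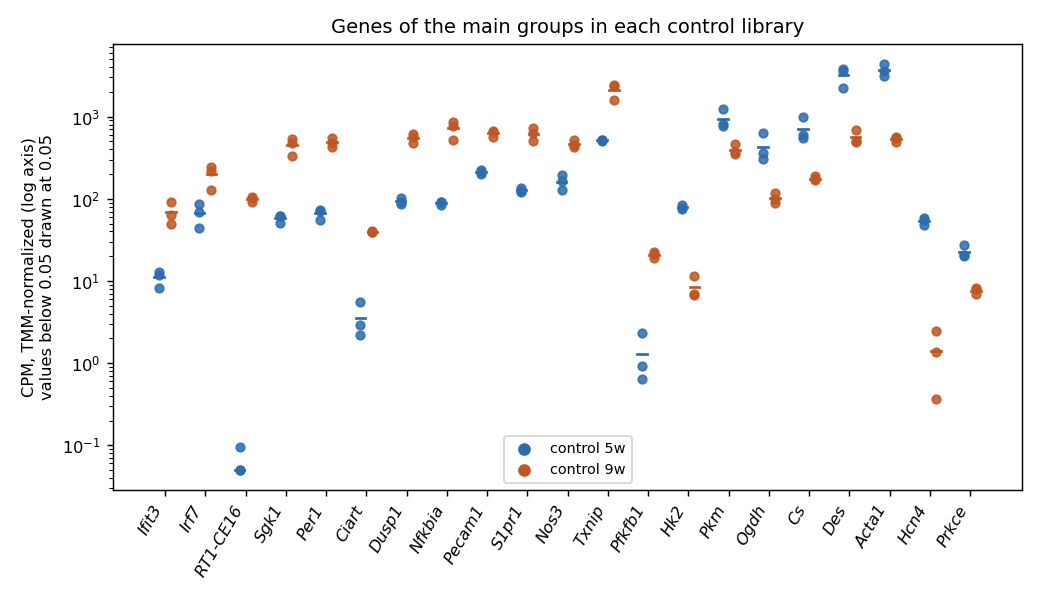
TMM-normalized CPM of genes from the main groups in each control library, on a log axis, with values below 0.05 drawn at 0.05. Dots are libraries and short lines the mean of 3, with control 5w on the left and control 9w on the right of each gene. In every gene drawn the libraries of the time points are apart, as in Hk2, where control 5w runs from 74.7 to 83.1 CPM and control 9w from 6.76 to 11.4 CPM.

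Immediate early genes respond within minutes to growth factors, stress and mechanical load. Of 34 tested genes, 14 rose and 1 fell, with a positive log2 fold change in 29 and a median of 0.82. Dusp1, a phosphatase that switches off p38 and JNK, had 102, 91.2 and 86.9 CPM in control 5w and 569, 615 and 477 CPM in control 9w (log2 fold change 2.57, SE 0.21, adjusted p = 7.78e-06), and Zfp36, which destabilizes cytokine mRNA, had 45.5, 41.4 and 43.7 CPM in control 5w and 205, 205 and 186 CPM in control 9w (log2 fold change 2.19). Klf2, a flow-responsive factor of endothelial cells, rose by 1.90 on the log2 scale. The gene that fell was Rgs2, a brake on G protein signaling, with 28.3, 44.5 and 40.3 CPM in control 5w and 9.25, 5.53 and 23 CPM in control 9w (log2 fold change -1.57), and its call was lost when control 5w replicate 2 or 3 or control 9w replicate 1 or 2 was left out and in a fit of the control libraries alone.

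Among cytokine, chemokine and NF-kB genes the changes were mixed, with 5 of 38 higher and 6 lower. Nfkbia, the inhibitor that NF-kB itself induces, had 90.3, 84.6 and 91.8 CPM in control 5w and 765, 864 and 527 CPM in control 9w (log2 fold change 3.01, SE 0.26, adjusted p = 1.02e-05). Txnip, an arrestin-like protein that limits glucose uptake and is itself induced by glucose, was the most raised DEG of the 100 most abundant genes, with 508, 516 and 517 CPM in control 5w and 2342, 2427 and 1581 CPM in control 9w (log2 fold change 2.04). Of these 100 genes, 5 rose and 13 fell.

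Endothelial genes were higher at week 9. Of 14 marker genes, 12 rose and none fell, the median was 1.47, and the level was 6.98, 6.66 and 6.83 log2 CPM in control 5w against 8.32, 8.41 and 8.12 in control 9w. More endothelial cells and more of these RNAs per cell cannot be told apart in bulk tissue, here or for any other cell type. Pecam1, the junction protein CD31, had 214, 202 and 225 CPM in control 5w and 645, 675 and 563 CPM in control 9w (log2 fold change 1.56, SE 0.21, adjusted p = 2.22e-04). Cldn5, a tight junction protein, had 38.8, 29.9 and 25.2 CPM in control 5w and 211, 309 and 133 CPM in control 9w (log2 fold change 2.80). The summed CPM of the list was 2650 to 3180 in control 5w and 6640 to 8820 in control 9w. Without control 5w replicates 2 and 3, 6 of the 14 rose.

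Of 30 genes of angiogenesis and VEGF signaling, 11 rose and 2 fell. S1pr1, the endothelial receptor of sphingosine 1-phosphate, had 135, 120 and 125 CPM in control 5w and 634, 720 and 503 CPM in control 9w (log2 fold change 2.29, SE 0.23, adjusted p = 4.66e-05), and Notch1, a receptor that restrains sprouting, rose by 1.41 on the log2 scale. Vegfa, the main ligand, had 1443, 745 and 912 CPM in control 5w and 2239, 3319 and 1596 CPM in control 9w (log2 fold change 1.21), a call lost without control 5w replicate 2, control 5w replicate 3 or control 9w replicate 2. Egln3, a prolyl hydroxylase that marks HIF for degradation, fell by 1.81. The number of genes that rose was 7 without control 5w replicate 2 and 7 without control 9w replicate 2, and 3 without both control 5w replicates 2 and 3.

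Of 26 genes of the renin-angiotensin, endothelin and nitric oxide list 5 rose and 3 fell, and of 28 of TGF-beta and BMP signaling 5 rose and none fell, with medians of 0.15 and -0.004. Nos3, endothelial nitric oxide synthase, had 194, 129 and 163 CPM in control 5w and 447, 515 and 423 CPM in control 9w (log2 fold change 1.51), whereas Ddah1, which degrades an endogenous inhibitor of that enzyme, had 66, 136 and 125 CPM in control 5w and 8.01, 5.9 and 16.1 CPM in control 9w and fell by 3.43 on the log2 scale. Id1 and Smad6, targets of BMP signaling in endothelium, rose by 2.55 and 2.33. Aqp1, a water channel, and Fabp4, a fatty acid carrier of capillaries and adipocytes, rose by 1.87 and 1.87 and were among the 100 most abundant genes. Of 10 adipocyte genes tested, only Fabp4 was a DEG.

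Genes of glucose uptake, glycolysis and glycogen were lower at week 9. Of 30 tested genes, 16 fell and 2 rose, the median was -1.03, and the level was 8.15, 7.57 and 7.61 log2 CPM in control 5w against 7.04, 7.09 and 7.23 in control 9w. Hk2, the insulin-responsive hexokinase of muscle, had 77.4, 83.1 and 74.7 CPM in control 5w and 6.88, 6.76 and 11.4 CPM in control 9w (log2 fold change -3.23, SE 0.32, adjusted p = 4.38e-05). Pkm, pyruvate kinase, had 1243, 773 and 808 CPM in control 5w and 375, 353 and 467 CPM in control 9w (log2 fold change -1.24). The genes that rose were Pfkfb1 and Pfkfb3, isoforms of the enzyme that sets fructose 2,6-bisphosphate, and Pfkfb1 had 2.35, 0.931 and 0.637 CPM in control 5w and 22.3, 21.1 and 19 CPM in control 9w (log2 fold change 4.01).

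Control 5w replicate 1 had the highest level of the list. Without it 8 genes of the list fell, and without control 9w replicate 1 it was 10. The calls of Pkm, Ldha (lactate dehydrogenase A, log2 fold change -1.05) and Pygm (muscle glycogen phosphorylase, log2 fold change -1.27) were lost without control 5w replicate 1. That of Ldha was also lost without control 9w replicate 1 or 2 and with limma voom. That of Pygm was also lost without control 5w replicate 3 or any library of control 9w, and with the replicate number as a block. That of Pfkfb3 (log2 fold change 1.05) was lost without control 5w replicate 2 and when the libraries were thinned to the smallest total. Hk2 kept its call under every setting tried.

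In the tricarboxylic acid cycle and pyruvate metabolism 8 of 26 genes fell and 1 rose, with a median of -0.89. Ogdh, a subunit of the 2-oxoglutarate dehydrogenase complex, had 631, 309 and 358 CPM in control 5w and 88.1, 116 and 99.9 CPM in control 9w (log2 fold change -2.09, SE 0.35, adjusted p = 7.87e-04), and Cs, citrate synthase, had 980, 549 and 590 CPM in control 5w and 169, 172 and 188 CPM in control 9w (log2 fold change -2.003). The gene that rose was Pdk4, a kinase that inhibits pyruvate dehydrogenase and is also a glucocorticoid target, with 36.3, 23.7 and 26.9 CPM in control 5w and 105, 153 and 93.3 CPM in control 9w (log2 fold change 2.02). Its call was lost without control 5w replicate 2, control 5w replicate 3 or control 9w replicate 2. Without control 5w replicate 1 the number of genes that fell was 4, and without control 9w replicate 2 it was 5.

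Oxidative phosphorylation as a list did not move with its neighbors. Of 75 tested genes, 3 fell and none rose, and the median was 0.03. Ndufs1, the large iron-sulfur subunit of complex I, had 1335, 731 and 799 CPM in control 5w and 220, 215 and 289 CPM in control 9w (log2 fold change -1.98), and Sdha, the flavoprotein of complex II, fell by 1.29, a call lost without control 9w replicate 2. The list stood at 9.09 log2 CPM in control 5w replicate 1 and at 7.94 and 8.08 in replicates 2 and 3, with control 9w between them at 8.36, 8.65 and 8.26. Without control 5w replicate 1, 10 genes rose. The week 5 libraries thus spanned the level of week 9.

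Fatty acid uptake and oxidation showed the same split of the week 5 libraries, with levels of 8.21, 6.99 and 7.20 in control 5w and 7.43, 7.60 and 7.34 in control 9w. Of 30 genes, Fabp4 rose and 2 fell. Hadh, a beta-oxidation enzyme, had 397, 121 and 167 CPM in control 5w and 63.9, 49.9 and 79.6 CPM in control 9w (log2 fold change -1.82), a call lost without control 5w replicate 1 or any library of control 9w. Slc16a1, the carrier MCT1 for lactate and ketone bodies, had 579, 505 and 523 CPM in control 5w and 165, 155 and 178 CPM in control 9w and fell by 1.69 on the log2 scale, without overlap.

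Genes of the sarcomere and Z-disc were lower in 5 of 27 cases and higher in 1, with a median of -0.78. Des, the muscle intermediate filament desmin, had 2209, 3771 and 3615 CPM in control 5w and 506, 489 and 696 CPM in control 9w (log2 fold change -2.51, SE 0.55, adjusted p = 0.0037). Tcap, the titin cap, was the gene that rose, with 25.3, 22.6 and 32.2 CPM in control 5w and 210, 260 and 112 CPM in control 9w (log2 fold change 2.86). Acta1, the skeletal actin of the fetal gene program, had 4340, 3586 and 3148 CPM in control 5w and 488, 547 and 569 CPM in control 9w (log2 fold change -2.79).

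The number of sarcomere genes that fell ranged from 1 to 3 when control 5w replicate 1 or 3 or control 9w replicate 1 or 2 was left out (1 without control 9w replicate 2). Actc1, cardiac actin, had 24120, 11860 and 12580 CPM in control 5w and 4514, 4873 and 5945 CPM in control 9w (log2 fold change -1.66), a call lost without control 5w replicate 1 or control 9w replicate 1 or 2. Myh6, the fast myosin heavy chain of the adult rodent heart, had 21440, 4280 and 5367 CPM in control 5w and 9613, 10730 and 11270 CPM in control 9w and was not a DEG, its sign turning with the libraries kept. Myh7, the slow isoform, had 9465, 11900 and 12270 CPM in control 5w and 5114, 5300 and 4234 CPM in control 9w, lower in every library of control 9w without passing the test (log2 fold change -1.20, adjusted p = 0.204).

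Of 26 ion channel genes of the action potential, 3 rose and 5 fell. Hcn4, the pacemaker channel that adult ventricular muscle expresses little, had 48, 54.7 and 59 CPM in control 5w and 1.35, 0.369 and 2.49 CPM in control 9w (log2 fold change -5.21, SE 0.53, adjusted p = 4.66e-05), and Kcnv2, a silent subunit of voltage-gated potassium channels, had 13.1, 16.2 and 20.3 CPM in control 5w and 0.902, 0.369 and 1.3 CPM in control 9w (log2 fold change -4.23). Kcnd3, a subunit of the transient outward current, and Kcna5, of the ultrarapid rectifier, rose by 1.90 and 3.18. Gja1, the gap junction protein connexin 43, fell by 1.21, a call lost without control 5w replicate 1 or control 9w replicate 1 or 2. The libraries of both time points were apart in each gene named here.

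Of 23 calcium handling genes, 4 fell and 1 rose. Casq2, the calcium buffer of the sarcoplasmic reticulum, had 2640, 1368 and 1504 CPM in control 5w and 615, 557 and 658 CPM in control 9w (log2 fold change -1.59), Jph2, which ties it to the T-tubule, fell by 2.03 and Slc8a1, the sodium-calcium exchanger, by 1.37 on the log2 scale. Atp2a2, the calcium pump SERCA2, had 10090, 4488 and 5176 CPM in control 5w and 4400, 3863 and 5805 CPM in control 9w and Ryr2, the release channel, had 1378, 1092 and 1129 CPM in control 5w and 951, 1038 and 1110 CPM in control 9w. Neither was a DEG, with adjusted p = 0.445 and adjusted p = 0.635.

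Of 46 genes of adrenergic and protein kinase C signaling, 9 fell and 2 rose, with a median of -0.25. Prkce, the kinase isoform PKC epsilon of cardiomyocytes, had 27.2, 20.1 and 20.5 CPM in control 5w and 8.12, 6.89 and 7.88 CPM in control 9w (log2 fold change -1.56, SE 0.25, adjusted p = 5.77e-04). Adrb1, the main beta-adrenergic receptor of the heart, had 11.8, 9.23 and 9.15 CPM in control 5w and 3.95, 1.97 and 2.79 CPM in control 9w (log2 fold change -1.78), and Adra1a, an alpha-1 receptor, fell by 1.85. Prkar2a, a regulatory subunit of protein kinase A, fell by 1.41, whereas Prkch, the isoform PKC eta, rose by 1.14. No library of one time point overlapped the other in these 5 genes.

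Matrix genes were lower at week 9 on average, and the difference rested on control 5w replicates 2 and 3. Of 16 collagen genes 8 fell (median -2.08) and of 30 other matrix genes 15 fell and 2 rose (median -1.83). The collagen level was 6.52 log2 CPM in control 5w replicate 1, 8.93 and 8.82 in replicates 2 and 3, and 6.63, 6.15 and 6.81 in control 9w. Col1a1, the main chain of type I collagen, had 496, 9900 and 7974 CPM in control 5w and 325, 205 and 402 CPM in control 9w (log2 fold change -4.30), and Postn, periostin of activated fibroblasts, had 45.6, 4079 and 3528 CPM in control 5w and 46.4, 35.4 and 130 CPM in control 9w (log2 fold change -5.17). With replicates 2 and 3 both left out, 0 collagen genes and 0 other matrix genes fell in edgeR's test, and the medians were -0.12 and 0.58.

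Col3a1, type III collagen, had 1320, 25570 and 20230 CPM in control 5w and 1450, 1023 and 1766 CPM in control 9w, so that control 5w replicate 1 lay among the libraries of control 9w. C1qtnf3 and Cthrc1, secreted proteins of remodeling tissue, had 1.32, 320 and 288 CPM in control 5w and 0.79, 0.246 and 0.698 CPM in control 9w and 3.02, 471 and 393 CPM in control 5w and 2.59, 1.11 and 2.69 CPM in control 9w, respectively. Fbn1, the microfibril protein fibrillin 1, had 355, 1952 and 1591 CPM in control 5w and 124, 92.7 and 190 CPM in control 9w, with replicate 1 also above control 9w. Of the matrix genes that rose, Timp4, an inhibitor of metalloproteinases, had 30.6, 19.2 and 21.3 CPM in control 5w and 180, 216 and 100 CPM in control 9w (log2 fold change 2.80). Adamts9, a protease, had 84.7, 54.8 and 65.3 CPM in control 5w and 161, 196 and 145 CPM in control 9w (log2 fold change 1.29), and its call was lost without both control 5w replicates 2 and 3, whereas that of Timp4 was not. In both genes control 5w replicate 1 was the library of week 5 nearest to control 9w. Without control 9w replicate 2, 9 of the other matrix genes fell and Postn lost its call.

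**Figure D3:**
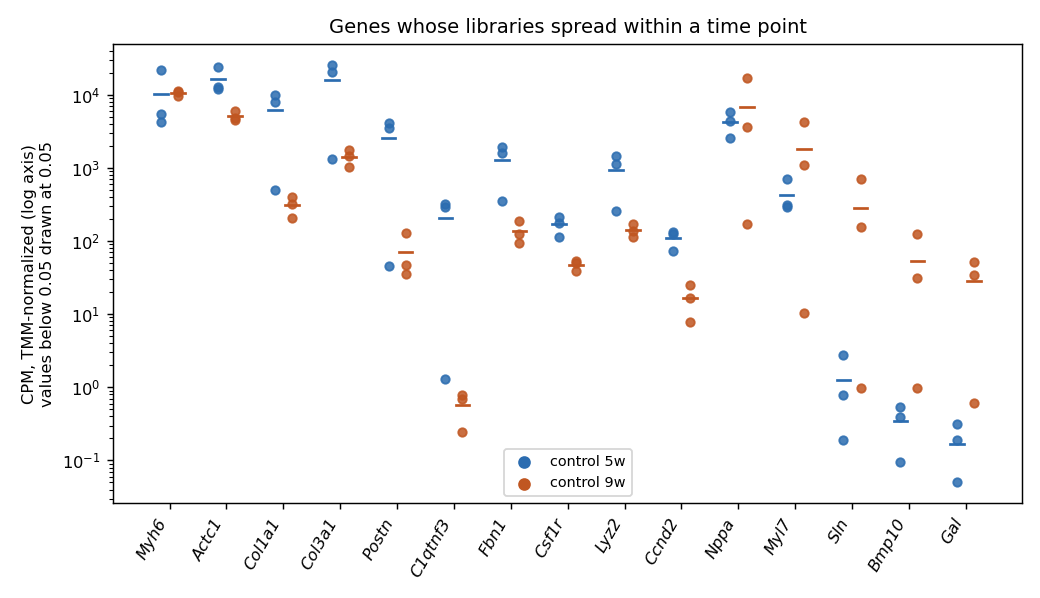
TMM-normalized CPM of genes that spread within a time point in each control library, on a log axis, with values below 0.05 drawn at 0.05. Dots are libraries and short lines the mean of 3, with control 5w on the left and control 9w on the right of each gene. One library of control 5w (replicate 1) sits near control 9w in Col1a1, Col3a1, Postn and C1qtnf3, and one library of control 9w (replicate 2) sits far below the other libraries of week 9 in Nppa, Myl7, Sln, Bmp10 and Gal.

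Of 12 fibroblast markers, which include Col1a1, Col1a2 and Lum of the matrix lists, 7 fell and 1 rose, and it was 3, 4 and 3 that fell without control 5w replicate 2, control 5w replicate 3 and control 9w replicate 2. Their level was 7.36, 8.91 and 8.7 log2 CPM in control 5w and 7.49, 6.99 and 7.54 in control 9w, with replicate 1 of control 5w again among control 9w, and their summed CPM was 7160 to 19700 in control 5w and 5260 to 7650 in control 9w. Their part in the matrix values was not tested. Of 19 macrophage and myeloid markers 9 fell and none rose, with a median of -1.11 and a summed CPM of 1010 to 2830 against 594 to 746. Their level was 5.03, 5.93 and 5.82 log2 CPM in control 5w and 4.59, 4.36 and 4.67 in control 9w, so that replicate 1 of control 5w lay below replicates 2 and 3 but above every library of control 9w. Csf1r, the receptor on which macrophages depend, had 113, 214 and 177 CPM in control 5w and 49.5, 39.1 and 52.8 CPM in control 9w (log2 fold change -1.83, SE 0.34, adjusted p = 0.00142), and Lyz2, lysozyme, had 261, 1451 and 1125 CPM in control 5w and 136, 112 and 170 CPM in control 9w (log2 fold change -2.76).

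Further macrophage genes fell. Adgre1, the antigen F4/80, fell by 2.20 and Cd68, a lysosomal protein, by 1.65 on the log2 scale, the latter call being lost without control 5w replicate 2 or control 9w replicate 1 or 2. With control 5w replicates 2 and 3 both left out none of the 19 fell in edgeR's test and the median was -0.59. Lymphocyte markers were low, at 1.26 to 1.98 log2 CPM on average, with 3 of 17 higher and 1 lower, and Klrd1, a receptor subunit of NK cells, had 1.79, 2.64 and 2.87 CPM in control 5w and 25.1, 18 and 20.4 CPM in control 9w (log2 fold change 3.11).

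Of 42 cell cycle genes 7 fell and none rose, a count that ran from 2 to 15 as single libraries were left out (15 without control 5w replicate 1, 2 without its replicate 2, 4 without its replicate 3, and 3 and 2 without control 9w replicates 1 and 2). Ccnd2, cyclin D2, had 72, 126 and 131 CPM in control 5w and 16.7, 7.87 and 25.2 CPM in control 9w (log2 fold change -2.71). Mcm5, a subunit of the replicative helicase, had 12.5, 12.3 and 12 CPM in control 5w and 5.53, 3.94 and 5.98 CPM in control 9w (log2 fold change -1.25). Both groups were apart in both genes.

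Atrial and conduction genes varied widely within control 9w. The level of 19 tested genes was 4.08, 4.44 and 4.31 log2 CPM in control 5w and 5.15, 3.12 and 6.19 in control 9w. Myl7, the atrial light chain, had 694, 293 and 307 CPM in control 5w and 1083, 10.3 and 4260 CPM in control 9w and was not a DEG (adjusted p = 0.352), nor was Myl4 (adjusted p = 0.071). Sln, sarcolipin, had 0.188, 2.79 and 0.796 CPM in control 5w and 157, 0.984 and 696 CPM in control 9w and Bmp10, an atrial ligand, had 0.0942, 0.543 and 0.398 CPM in control 5w and 31.2, 0.984 and 127 CPM in control 9w. Nppa, atrial natriuretic peptide, had 2583, 5794 and 4311 CPM in control 5w and 3622, 173 and 16880 CPM in control 9w, so that control 9w replicate 3 was the highest and replicate 2 the lowest of the 6 libraries.

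Of the list 4 rose and 1 (Hcn4) fell, and 2 rose without control 9w replicate 3. The call of Sln (log2 fold change 7.76) was lost without control 5w replicate 1, control 5w replicate 3 or control 9w replicate 3. Bmp10 (log2 fold change 7.17) and Tbx3, a factor of the conduction system, with 11.9, 8.46 and 7.96 CPM in control 5w and 56.1, 58.7 and 32 CPM in control 9w (log2 fold change 2.38), kept their calls with any 1 library left out, but Bmp10 lost it without control 5w replicate 1 and control 9w replicate 3 together and without both control 5w replicates 2 and 3. The part of atrial tissue in the libraries of control 9w was not tested. The gene Gal, for the neuropeptide galanin, had 0.188, 0.31 and 0 CPM in control 5w and 33.8, 0.615 and 51.9 CPM in control 9w and followed the same order of libraries, and its call was also lost without both control 5w replicates 2 and 3.

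Of 9 red blood cell genes tested none was a DEG in edgeR's test, with 1 at an unadjusted p under 0.05, 1 called by DESeq2 and 4 by limma voom. Among the largest changes without overlap, Ltk, a receptor tyrosine kinase, had 0.0942, 0.0776 and 0.239 CPM in control 5w and 6.2, 5.66 and 3.79 CPM in control 9w (at least 20.8-fold higher against a floor of 3 counts per library). That floor was 0.251 CPM in control 5w and 0.335 CPM in control 9w. Of 81 cytosolic ribosomal protein genes none was a DEG in edgeR's test (14 at an unadjusted p under 0.05, 0 called by DESeq2 and 0 by limma voom), and the level was 8.45, 8.43 and 8.29 log2 CPM in control 5w and 8.38, 8.41 and 8.28 in control 9w. Single members still differed, and Rplp0 had 1575, 1734 and 1526 CPM in control 5w and 912, 830 and 1022 CPM in control 9w, below the fold change minimum at a log2 fold change of -0.81 (adjusted p = 0.00282). Without control 9w replicate 3, 1 gene of that list rose.

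**Figure D4:**
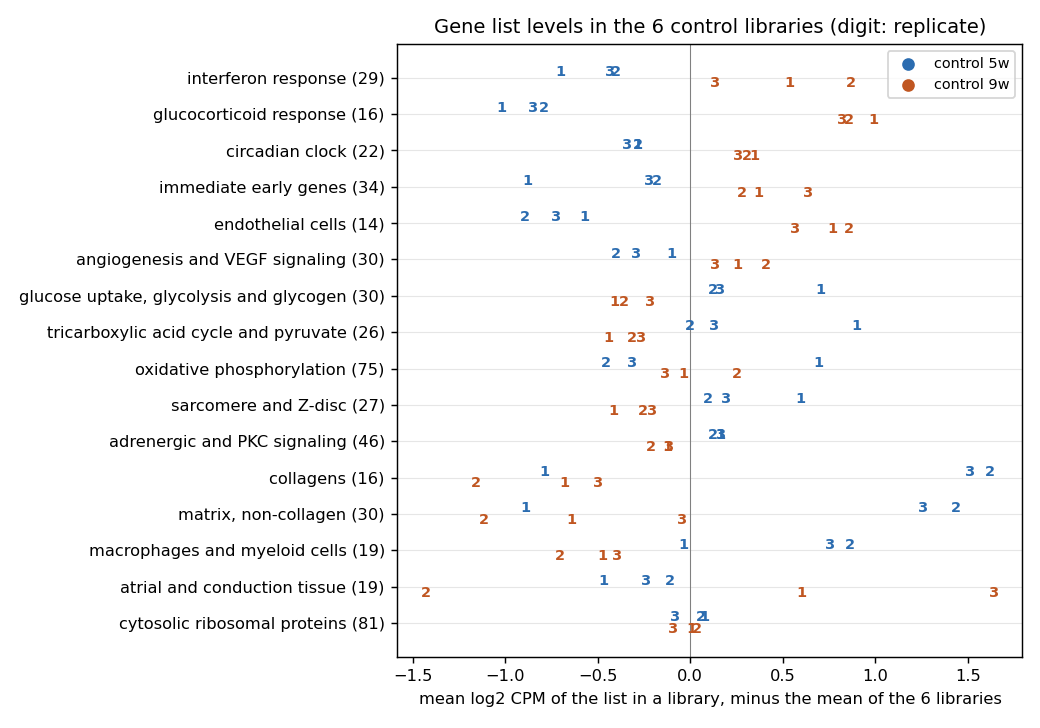
Level of gene lists in each of the 6 control libraries, as the mean log2 CPM of the list minus the mean of the 6 libraries. Digits are replicate numbers, blue for control 5w and orange for control 9w, and the number of tested genes is in parentheses. The time points separate in the interferon, glucocorticoid, clock, immediate early, endothelial and angiogenesis lists (week 9 higher) and in the glycolysis, tricarboxylic acid cycle, sarcomere, adrenergic and PKC and macrophage lists (week 5 higher), whereas collagens and matrix set replicates 2 and 3 of control 5w apart from the other 4 libraries.

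The change with time was then set beside that in the diseased arm, untreated against HFpEF hearts, which shares no library with the controls. There 24 genes (0.194% of those tested) were DEGs, 14 higher and 10 lower at week 9, with 2817 genes at an unadjusted p under 0.05. This count was not stable: it was 441 with DESeq2, 1076 with limma voom, 4 without HFpEF replicate 1 and 933 without untreated replicate 2. Of the 924 genes higher in control 9w, 486 (52.6%) had the same sign in the diseased arm, and of the 893 lower 539 (60.4%), against 51.6% of all tested genes. A test of the difference between the changes, untreated minus HFpEF less control 9w minus control 5w, called 1489 genes (12.0% of those tested), 787 positive and 702 negative. Leaving out untreated replicate 1 gave 877, leaving out its replicate 2 gave 2241, and leaving out control 9w replicate 2 gave 975. This difference contains the control change with the opposite sign, so the values of each arm are given side by side.

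The Y-linked gene Eif2s3y was at 0 in HFpEF replicates 1 and 3 and in all untreated libraries, although the labels say male, with 0, 78.4 and 0 CPM in HFpEF and 0, 0 and 0 CPM in untreated hearts. Ddx3, which had 0, 99.4 and 0 CPM in HFpEF and 0, 0 and 0 CPM in untreated hearts, moved with that gene. Ddx3y, the other Y-linked gene tested, did not, and was low in every library, with 0.431, 0.55 and 0.893 CPM in HFpEF and 1.16, 1.38 and 1.16 CPM in untreated hearts and 0.369 to 1.51 CPM in the controls. The difference for other genes was measured with these libraries included, and the part of sex was not tested.

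The median log2 fold change of the interferon list was 1.06 in controls and -0.41 in untreated against HFpEF hearts, of the glucocorticoid list 1.775 and -0.31, of the endothelial list 1.47 and 0.15, of the angiogenesis list 0.73 and 0.29, and of the atrial list 0.43 and 1.18. The atrial value rested largely on untreated replicate 2, whose level of the list was 5.98 log2 CPM against 3.26 and 3.38 in replicates 1 and 3 and 3.25, 3.07 and 3.52 in HFpEF hearts, and without that library it was 0.51. The endothelial value was -0.05 and the angiogenesis value 0.13 without HFpEF replicate 1. Without HFpEF replicate 2 they were 0.47 and 0.51, and the interferon value was -0.24. The glucocorticoid value was -0.055 without HFpEF replicate 3. Myl7 had 7.75, 15.3 and 39.7 CPM in HFpEF and 23.9, 3052 and 44.4 CPM in untreated hearts. Sgk1 had 251, 221 and 282 CPM in HFpEF and 220, 230 and 275 CPM in untreated hearts (log2 fold change -0.06, difference -3.02, SE 0.30, adjusted p = 2.60e-04). Ifit3 had 35.4, 49.8 and 62.6 CPM in HFpEF and 25.5, 22.9 and 39.2 CPM in untreated hearts (log2 fold change -0.75, difference -3.38, adjusted p = 8.09e-04). In both genes every HFpEF library lay above control 5w, and the HFpEF and untreated libraries overlapped.

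The medians of glycolysis, the tricarboxylic acid cycle and the sarcomere had opposite signs in the arms. That of oxidative phosphorylation was 0.03 in controls and 0.63 in the diseased arm, from 0.39 to 0.96 with 1 library of that arm left out. That of glycolysis was -1.03 in controls and 0.58 in the diseased arm, that of the tricarboxylic acid cycle -0.89 and 0.955, and that of the sarcomere -0.78 and 0.80. Untreated replicate 2 lay below the other untreated libraries in these lists, with levels of 8.92, 7.09 and 8.61 log2 CPM in untreated and 6.98, 7.2 and 7.97 in HFpEF hearts for the tricarboxylic acid cycle. The medians of the diseased arm stayed above 0 with any 1 of its libraries left out, from 0.27 to 0.88 for glycolysis, from 0.56 to 1.35 for the tricarboxylic acid cycle and from 0.47 to 1.18 for the sarcomere, alternatives chosen after seeing the data. Over 11 cardiomyocyte markers the median was -0.215 in controls and 0.986 in the diseased arm (0.593 to 1.54 with 1 library left out). Over 12 fibroblast markers it was -1.33 and -0.775 (-1.27 to -0.525 with 1 library left out). The part of cell types in the other medians was not tested. Hk2 had 19, 8.8 and 17.2 CPM in HFpEF and 30.9, 15.9 and 25.9 CPM in untreated hearts (log2 fold change 0.68, difference 3.91, SE 0.43, adjusted p = 3.43e-04), and Hcn4 had 4.52, 1.65 and 3.04 CPM in HFpEF and 3.17, 4.3 and 9.69 CPM in untreated hearts (difference 6.08, adjusted p = 3.92e-04). The collagen and macrophage medians had the same sign in both arms, -2.08 and -1.24 for collagens and -1.11 and -1.295 for macrophages, with 1 and 0 genes called in the test of the difference. Without HFpEF replicate 1 those of the diseased arm were -0.445 and -0.85. The red blood cell median was 0.178 in controls and -3.52 in the diseased arm, and 6 of 9 genes were called in the test of the difference. Hbb, a hemoglobin gene, had 1601, 1269 and 3531 CPM in HFpEF and 213.1, 170.5 and 279 CPM in untreated hearts.

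Values for the DEG with the smallest p of each list are plotted for both arms, and since these genes were chosen by the control change, the sizes of the 2 changes are no comparison of the arms. The log2 fold change of Csf1r was -1.83 in controls and -1.11 in the diseased arm, with a difference of 0.73 (SE 0.47, adjusted p = 0.281) that was not called and does not show that the changes were equal.

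**Figure D5:**
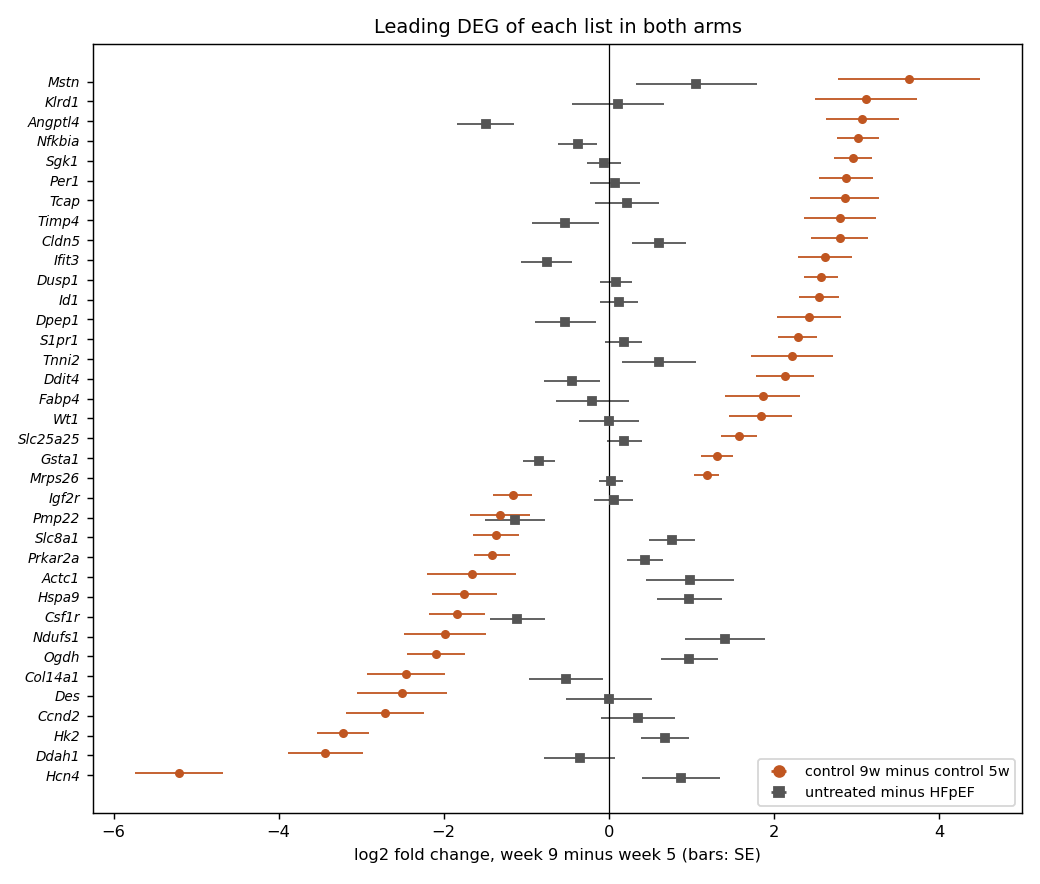
Log2 fold change from week 5 to week 9 in control hearts (circles) and in the diseased arm, untreated minus HFpEF (squares), for the DEG with the smallest p of each gene list, RT1-CE16 left out. Bars are standard errors derived from the F statistics of the fit of all 19 libraries. Control changes run from -5.21 (Hcn4) to 3.63 (Mstn), and those of the diseased arm from -1.49 (Angptl4) to 1.41 (Ndufs1).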

How the data were processed

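Total RNA of male left ventricles was extracted with TRIzol and sequenced at BGI. The values used are raw read counts per gene, which the authors deposited for each library after trimming with Trim Galore, quality control with FastQC, alignment to rn6 with HISAT2 and counting with HTSeq. Tool versions, strand setting and the treatment of shared reads are not given in the sources used here.

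From the counts, edgeR 4.0.16 in R 4.3.3 gave TMM-normalized CPM and, after its expression filter, a quasi-likelihood fit of 7 groups in 19 libraries, with Benjamini-Hochberg adjustment over all tested genes. Genes past 0.05 in adjusted p-value that changed by 1 or more on the log2 scale were called DEGs. The standard error (SE) of a log2 fold change is its absolute value divided by the square root of the F statistic of that fit. List levels are means of log2 CPM with a prior count of 2. DESeq2 1.42.0 and limma 3.58.1 were alternatives, and the fit was checked on simulated data. Replicates are the submitters' biological replicates.

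The comparison, the gene lists and the members were chosen with earlier results of these data known. Genes were named by rule: the largest rises and falls without overlapping libraries and with at least 5 CPM in the higher group, DEGs of the 100 most abundant genes, DEGs of each list with the smallest p, a fixed set of cardiac genes, and the largest differences between arms. Further list members were named for their role after their values had been seen. Promoter sequences are RefSeq windows on GRCr8, matched by symbol, whereas the counts were made on rn6. A few genes are not reported here.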

Additional observations from a re-analysis of the deposited data

Results flagged for a closer look

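The change from week 5 to week 9 differed between the arms in 1489 genes by edgeR's test of the difference, untreated minus HFpEF less control 9w minus control 5w, a count that was 2559 with limma voom and ran from 877 to 2241 with 1 library left out. The difference contains the control change with the opposite sign, and most genes given here were chosen as the DEG of a list with the smallest p in the control comparison. Values in parentheses are log2 differences. Eif2s3y was at 0 CPM in HFpEF replicates 1 and 3 and in all untreated libraries, and the part of this in the differences was not tested.

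Positive differences, from genes that fell in control hearts, were found for metabolic genes and a chaperone with Ndufs1 (3.39), Ogdh (3.07), Hk2 (3.91) and Hspa9 (2.72), for contractile, calcium and channel genes with Actc1 (2.65), Des (2.5), Slc8a1 (2.14) and Hcn4 (6.08), and for Col14a1 (1.93), Ccnd2 (3.07), Igf2r (1.22), Ddah1 (3.08) and Prkar2a (1.85). A further one was that of C1qtnf3 (7.5), which had 320 and 288 CPM in control 5w replicates 2 and 3 and at most 8.97 CPM in the other libraries of these 4 groups.

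Negative differences were found, from genes that rose in control hearts, for lipid genes with Fabp4 (-2.07) and Angptl4 (-4.56), for stress, hormone and clock genes with Sgk1 (-3.02), Per1 (-2.8), Dusp1 (-2.49), Nfkbia (-3.39), Ddit4 (-2.58) and Gsta1 (-2.15), for the interferon gene Ifit3 (-3.38), and for vascular genes with Cldn5 (-2.19), S1pr1 (-2.11) and Id1 (-2.42). Further ones, also from genes that rose in control hearts, were those of Tcap (-2.64), Timp4 (-3.33), Dpep1 (-2.95), Klrd1 (-3), Wt1 (-1.84), Mrps26 (-1.16) and Slc25a25 (-1.39). RT1-CE16, Slc27a2, Gal, Msln and Ddx3 were also called, but each had a group with a mean of at most 3 counts, so that no size of the difference is given.

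With 1 library of the 4 groups left out at a time, which was chosen after seeing the data, no sign of these differences turned, but the calls of Actc1, Des, Col14a1, Igf2r, C1qtnf3, Fabp4, Klrd1 and Wt1 were each lost in at least 1 case. The highest number lost at once was 7 of 33, without control 9w replicate 2 or HFpEF replicate 2.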

How the results depend on the processing

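Size factors (RLE 1823 and upper quartile 1798 DEGs), no filter (1815), at least 10 counts in every control library (1429), DESeq2 (1958), limma voom with quality weights (2716), a fit of the 6 control libraries alone (1696) and thinning (1748) kept the count between control 9w and control 5w within 1.5 times of 1817. Without the fold change minimum it was 4276. With 1 library left out it ran from 1206 to 2025, the lowest without control 9w replicate 2. Chosen after seeing the data, control 5w replicates 2 and 3 summed gave 1404, both left out 897 (617 of them among the 1817), and leaving out control 5w replicate 1 and control 9w replicate 3 gave 2156. For untreated against HFpEF hearts the count of 24 became 441 with DESeq2, 1076 with limma voom and 1 in a fit of those groups alone, and 4 to 933 with 1 library left out (4 without HFpEF replicate 1, 10 without its replicate 3, 260 without its replicate 2, 6 without untreated replicate 1 or 3 and 933 without untreated replicate 2), so that this count is not stable. For the difference between arms the count of 1489 became 2559 with limma voom, 2473 without the fold change minimum and 877 to 2241 with 1 library left out (877 and 2241 without untreated replicates 1 and 2, 975 without control 9w replicate 2). The cause was not tested.

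The replicate numbers did not pair the samples, with correlations of deviations of -0.0125, -0.251 and 0.225 for numbers 1, 2 and 3. With the replicate number as a block there were 1680 DEGs between control 9w and control 5w (1653 of them among the 1817), 8 in untreated against HFpEF hearts and 1261 for the difference, and of the named DEGs the block ended the call of Pygm alone.

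Of 97 named DEGs, 76 kept their call under each other normalization, filter, tool, block and omission of 1 library that gave them a value (the filter of at least 10 counts covered 84 of the 97 and the fit of the control libraries alone 95). The log2 fold change of genes that were not DEGs turned sign: that of Myh6 ran from -0.347 to 1.136 with 1 library left out (-0.317 with control 5w replicates 2 and 3 summed and -1.032 with both left out), that of Tnnt2 from -0.207 to 0.27 (0.294 without control 5w replicate 1 and control 9w replicate 3, 0.128 with limma voom), and that of Nppa from -1.155 to 1.279 (-1.411 and -0.526 under the same settings). With control 5w replicates 2 and 3 both left out, that of Col3a1 was 0.091 and that of Postn 0.625, and 38 other named calls were lost. List counts of 1 to 3 genes moved by 1 or 2 as libraries were left out.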
